A study of Mus musculus with 39 samples.

Results

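The genes described here carry inhibitory signalling by GABA, the main inhibitory transmitter of the forebrain, and mark the interneurons that release it. They were chosen by name: the rule takes every gene whose symbol is on a list of 30, and all 30 were found in both count tables, among 50559 genes in each. The list holds 12 receptor subunit genes (10 of the ionotropic GABA-A receptor and 2 of the metabotropic GABA-B receptor), the scaffold gene Gphn, 3 genes of GABA synthesis and vesicle loading, and 14 further genes used to tell interneuron classes apart, of which 4 encode transcription factors. The last 2 sets are called the 17 interneuron genes below. All 30 passed the filter on low counts in both tissues.

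GABA is made from glutamate by the decarboxylases encoded by Gad1 and Gad2 and is packed into vesicles by the transporter encoded by Slc32a1. GABA-A receptors are chloride channels built of subunits from several families. Gamma subunits help to hold receptors at the synapse, where the gephyrin scaffold sits, while receptors with a delta subunit lie outside it and give a tonic current. In the hippocampus the delta subunit is best known from dentate granule cells and the alpha-5 subunit from pyramidal cells, while the basolateral amygdala (BLA) is a cortex-like nucleus bordered by clusters of GABA neurons and by the striatum-like central nucleus.

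The study sequenced poly(A) RNA from 39 libraries of female mice aged 9 months, 19 of the BLA and 20 of the hippocampus. APP/Tau mice carried the APPSw,Ind transgene of the J9 line together with the tau P301S transgene of the PS19 line. Controls lacked both, and every mouse of either genotype also carried CaMKIIα-Cre, which is active in glutamatergic neurons of the postnatal forebrain, and the RiboTag allele. Only the input lysate was sequenced, so the RNA came from all cells of the tissue and not from the tagged neurons. Trained mice heard a tone that ended with a footshock and were killed 1 hour later, and naive mice were not trained. The BLA was represented by 5 naive and 4 trained APP/Tau and by 5 naive and 5 trained control libraries, and the hippocampus by 5 naive and 4 trained APP/Tau and by 5 naive and 6 trained control libraries. The BLA was taken with a punch and libraries were made from 10 ng of RNA, whereas the hippocampus was cut out whole and 50 ng was used, so a difference between the tissues cannot be told apart from these differences in handling. In such bulk tissue, fewer cells of a type and less RNA per cell cannot be told apart.

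Hippocampal libraries held 92.12 to 128.3 M counts and BLA libraries 50.3 to 74.29 M. As a check of the genotype labels, Prnp was above every control in 9 of 9 APP/Tau libraries of each tissue, and App and Mapt were so in 9 of 9 in the hippocampus, although in 0 and 1 of 9 in the BLA. In the hippocampus, 2 APP/Tau libraries (naive replicate 5 and trained replicate 1) stood apart, with summed excitatory neuron markers (12 genes such as Slc17a7 and Neurod6) at 4221 and 3860 CPM (counts scaled to library size) against a median of 7306. In the BLA, 2 libraries (APP/Tau naive replicate 2 and control trained replicate 2) held 6109 and 5692 CPM of 19 marker genes of the central amygdala, intercalated cells and striatum, such as Ppp1r1b and Drd1, against a median of 2368; these are called striatal-type markers below. Of 8 markers of BLA projection neurons, such as Rspo2 and Etv1, 4 were higher and 3 lower in the BLA than in the hippocampus, and of 10 dentate granule cell markers 7 were lower. Averaged over groups, 30% of all genes tested were called higher in the BLA and 34.5% lower. Levels are CPM with TMM scaling within a tissue, and a gene was called where edgeR's quasi-likelihood test, adjusted by Benjamini-Hochberg over all genes tested, gave an adjusted p under 0.05. Differences are log2 fold changes ± SE.

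The tissues differed in which receptor subunits they held, in the amount of synthesis genes and in interneuron class genes. Averaged over the 4 groups, 14 of the 30 genes were higher and 7 lower in the BLA than in the hippocampus, and 64.5% of all genes tested were called in this comparison (30% higher and 34.5% lower), so the count itself is close to the background. In naive controls alone, 13 were higher and 4 lower, beside 20.4% of all genes called higher and 20.7% lower (41.1% in either direction). Leaving out the 2 striatal-rich BLA libraries or the 2 hippocampal libraries low in excitatory markers gave 20 called members each. Libraries of different tissues entered this fit as if from different mice, which the labels do not state.

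Among receptor genes differences lay in both directions. Gabra3, which encodes the alpha-3 subunit, measured 210, 230, 200, 216 and 253 CPM in the 5 naive control BLA libraries and 76.0, 68.8, 76.9, 62.4 and 79.0 CPM in the 5 hippocampal ones. All BLA values lay above all hippocampal values, and over all groups the ranges were 110 to 269 and 56.6 to 98.3 CPM. The average difference was 1.41 ± 0.09, or 2.66-fold (edgeR adjusted p = 2.27e-16), and 1.63 ± 0.17 in naive controls. Gabra5, encoding alpha-5, went the other way: 49.8, 51.2, 65.5, 54.7 and 51.7 CPM in naive control BLA and 154, 168, 173, 208 and 212 CPM in naive control hippocampus. Again no BLA library (49.8 to 92.7 CPM over all groups) reached the lowest hippocampal one (97.6 to 230 CPM), with an average difference of -1.44 ± 0.08 (edgeR adjusted p = 3.65e-18).

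Of the gamma subunits, Gabrg1 measured 61.3, 63.5, 73.4, 76.6 and 69.3 CPM in naive control BLA against 18.2, 24.1, 22.8, 20.6 and 21.5 CPM in naive control hippocampus. Every BLA library was above every hippocampal one, and the average difference was 1.74 ± 0.08 (3.34-fold, edgeR adjusted p = 5.23e-20). Gabrg3 was higher by 0.88 ± 0.06, with ranges of 34.4 to 63.0 and 21.9 to 29.2 CPM that did not overlap. Gabre, encoding the rare epsilon subunit, was the least abundant of the 30 genes per kilobase of annotated exon in the naive controls of both tissues. It measured 2.01, 3.86, 2.64, 4.97 and 3.11 CPM in naive control BLA and 0.069, 0.144, 0.268, 0.202 and 0.197 CPM in naive control hippocampus. The difference was 4.43 ± 0.38 on average (21.5-fold, edgeR adjusted p = 1.54e-12), although over all groups the ranges met (0.279 to 10.5 and 0 to 0.907 CPM). The beta subunit genes Gabrb2 (-0.32 ± 0.05) and Gabrb1 (-0.19 ± 0.05) were lower in the BLA, and Gabbr1, a GABA-B receptor subunit, was higher by 0.22 ± 0.03. Gabra2, Gabra4, Gabrd and Gabbr2 did not pass, and for Gabrd the 95% interval ran from -0.09 to 0.48. Gphn, whose protein gathers glycine and GABA-A receptors beneath the membrane, differed by -0.01 with an interval of -0.06 to 0.05.

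Several of these subunit genes are neighbours on a chromosome and differed between the tissues in unlike ways. In the GENCODE annotation of GRCm38, Gabra5 (chr7:57407672-57510059, minus strand) lies beside Gabrg3 (chr7:56716465-57387188, minus strand), yet the first was lower and the second higher in the BLA. On the X chromosome, Gabra3 (chrX:72432681-72656848, minus strand) and Gabre (chrX:72255999-72274803, minus strand) were both higher in the BLA. On chromosome 5, Gabrg1 (chr5:70751047-70842617, minus strand) was higher, its neighbours Gabra2 and Gabra4 did not pass, and Gabrb1 was lower.

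The sequences before the start of the neighbouring pairs on chromosome 7 and the X chromosome, of Gabrg1, and of Slc32a1 as the synthesis and loading gene with the largest difference, are printed so that they can be compared. They are RefSeq sequences of GRCm38.p6, an older build than the mm39 of the counts, at most 250 bases long, 5′ to 3′ on the gene's strand, without bases of an exon. Capitals mark matches on either strand to the CCAAT box (CCAAT), the TATA box (TATAAA), the GC box (GGGCGG) and the homeodomain core (TAATTA), and the letters of these different motifs do not overlap in these windows.
Gabra3 (chrX:72656920-72657169, minus strand): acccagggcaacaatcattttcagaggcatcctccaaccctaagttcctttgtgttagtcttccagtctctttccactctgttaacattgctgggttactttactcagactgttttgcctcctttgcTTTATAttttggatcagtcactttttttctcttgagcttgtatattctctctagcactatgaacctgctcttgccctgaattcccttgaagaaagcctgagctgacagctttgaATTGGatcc
Gabre (chrX:72274804-72274971, minus strand): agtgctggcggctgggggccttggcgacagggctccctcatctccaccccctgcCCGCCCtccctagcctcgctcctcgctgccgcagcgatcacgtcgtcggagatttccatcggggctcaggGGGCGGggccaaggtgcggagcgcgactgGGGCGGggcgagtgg
Gabra5 (chr7:57510060-57510309, minus strand): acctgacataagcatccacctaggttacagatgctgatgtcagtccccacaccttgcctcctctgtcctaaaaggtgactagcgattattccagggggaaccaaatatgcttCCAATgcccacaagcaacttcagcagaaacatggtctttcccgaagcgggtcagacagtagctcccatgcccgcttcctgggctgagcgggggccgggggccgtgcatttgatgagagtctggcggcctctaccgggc
Gabrg3 (chr7:57387216-57387465, minus strand): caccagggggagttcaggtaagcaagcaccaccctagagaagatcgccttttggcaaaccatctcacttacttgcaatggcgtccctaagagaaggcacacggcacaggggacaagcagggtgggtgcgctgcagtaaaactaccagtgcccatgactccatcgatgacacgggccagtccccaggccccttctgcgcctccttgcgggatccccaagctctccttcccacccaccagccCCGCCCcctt
Gabrg1 (chr5:70842618-70842867, minus strand): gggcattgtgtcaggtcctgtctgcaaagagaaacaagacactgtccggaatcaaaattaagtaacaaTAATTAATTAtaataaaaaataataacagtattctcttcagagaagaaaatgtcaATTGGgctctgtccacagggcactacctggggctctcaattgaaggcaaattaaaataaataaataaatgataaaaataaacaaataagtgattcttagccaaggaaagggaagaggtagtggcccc
Slc32a1 (chr2:158610508-158610757, plus strand): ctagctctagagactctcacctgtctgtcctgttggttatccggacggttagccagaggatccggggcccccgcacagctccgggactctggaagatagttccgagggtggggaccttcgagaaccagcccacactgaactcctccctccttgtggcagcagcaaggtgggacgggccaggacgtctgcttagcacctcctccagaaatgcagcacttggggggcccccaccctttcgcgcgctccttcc
The 2 X-linked genes that were both higher in the BLA had unlike windows: that of Gabra3 held 42.4% G and C with 1 CCAAT and 1 TATA match, and that of Gabre held 73.2% with 3 GC boxes. On chromosome 7 the window of Gabra5 held 56.4% G and C and 1 CCAAT match, and that of Gabrg3 60.4% and 1 GC box. The window of Gabrg1 held 35.6% G and C, 1 CCAAT match and 2 TAATTA matches that share letters, and that of Slc32a1 held 62.4% and no match. Among 32851 windows of the RefSeq table the median share of G and C was 52.4%, and 33.8% held a CCAAT, 12.4% a TATAAA, 32.7% a GGGCGG and 4.84% a TAATTA match. These windows had the full 250 bases, and exon bases were not removed from them, whereas that of Gabre was cut to 168. The E-box CACGTG (in 6.02% of all windows) and TGACGTCA (1.55%) were in none of the 6. These matches describe letters only. Of the 30 genes 26 had a window; Calb2, Htr3a, Dlx5 and Gabrd were not used here.

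All 3 genes of synthesis and loading were higher in the BLA. Slc32a1 measured 148, 198, 257, 214 and 185 CPM in naive control BLA and 75.0, 68.3, 71.4, 72.2 and 75.0 CPM in naive control hippocampus. The BLA libraries were the more spread, yet the lowest of all of them (130 CPM) was above the highest hippocampal one (88.5 CPM). The difference was 1.73 ± 0.11 (3.32-fold, edgeR adjusted p = 1.68e-16), with the caveat that an antisense gene overlaps 24.9% of the exon bases of Slc32a1 and the strand setting of the counting is not given. Gad2 was higher by 1.34 ± 0.10 (228 to 723 against 151 to 204 CPM) and Gad1 by a smaller 0.67 ± 0.07 (364 to 737 against 284 to 344 CPM). Neither gene's ranges overlapped between the tissues.

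Interneuron class genes were divided. The peptide genes Sst (1.00 ± 0.08) and Npy (0.99 ± 0.08) were higher in the BLA, as was Lamp5 (0.78 ± 0.08), which marks neurogliaform cells. So were the transcription factor genes Dlx5 (1.65 ± 0.12), Dlx2 (0.59 ± 0.09) and Lhx6 (0.30 ± 0.06). Across the BLA libraries Lamp5 and Dlx5 rose with the mean level of the striatal-type markers (r 0.84 and 0.94). Which cells carried their RNA was not tested. Pvalb, the parvalbumin gene of fast-spiking basket cells, was lower by -0.88 ± 0.14, with 8.25 to 35.1 CPM in the BLA and 23.1 to 38.9 CPM in the hippocampus. Reln, which encodes an extracellular glycoprotein of stratum lacunosum-moleculare interneurons, was lower by -0.77 ± 0.11, and its naive control values were 21.5, 24.3, 32.4, 30.4 and 25.5 CPM in the BLA against 76.0, 69.3, 53.7, 58.6 and 68.6 CPM. The serotonin receptor gene Htr3a was also lower (-0.53 ± 0.14). Dlx1, whose protein acts in the same family as that of Dlx2, was called lower (-0.20 ± 0.08, edgeR adjusted p = 0.0394), a call that ended without either pair of libraries that stood apart (adjusted p = 0.0702 and 0.106) and that 25 of 39 single left-out libraries kept. Vip, Cck, Calb2 and Nos1 did not pass. In all, 10 of 30 genes had ranges that did not overlap between the tissues, beside 8.35% of all genes tested: Gabra3, Gabra5, Gabrg1, Gabrg3, Gad1, Gad2, Slc32a1, Sst, Lamp5 and Dlx5.

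**Figure D1:**
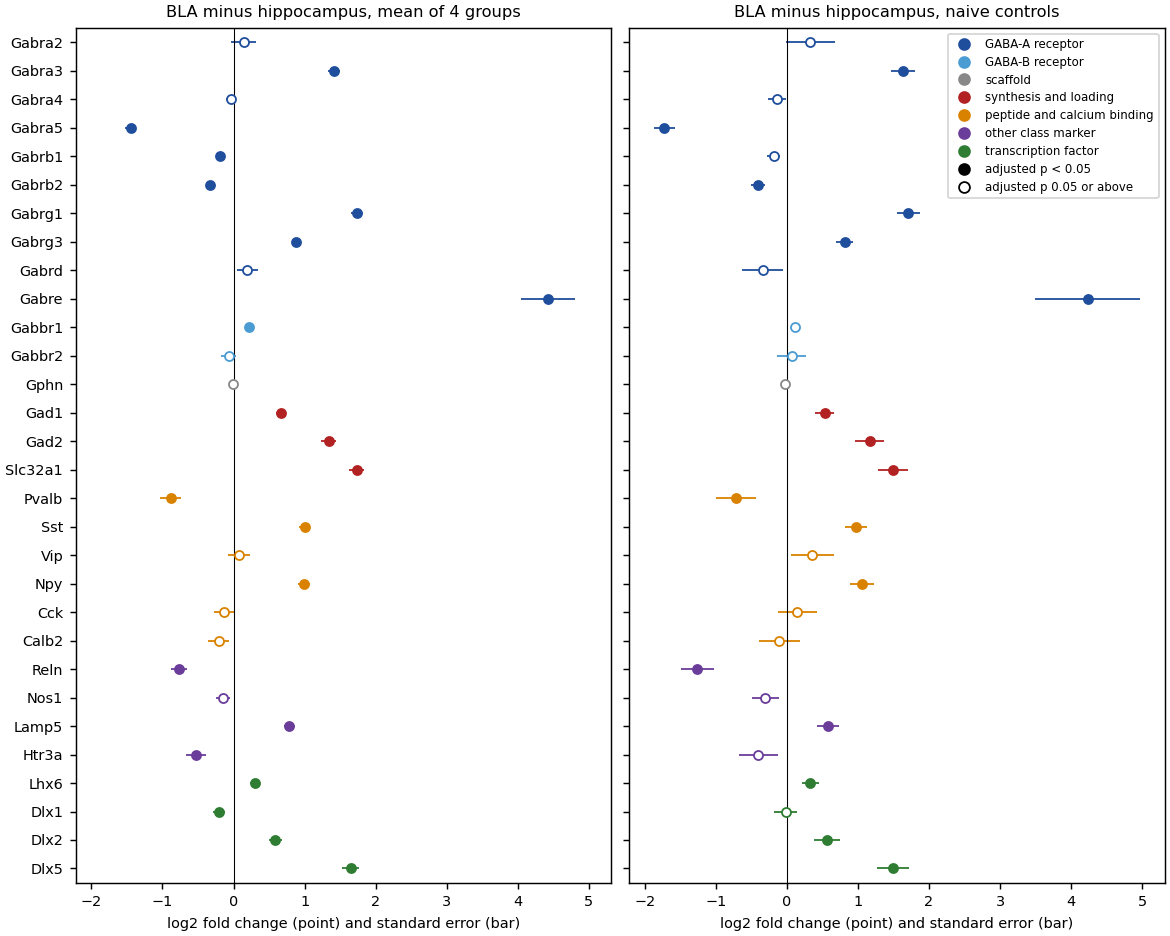
Difference between BLA and hippocampus for each of the 30 genes, as log2 fold change (point) with its SE (bar), averaged over the 4 groups (left) and in naive controls (right), coloured by role; values right of 0 are higher in the BLA and filled points have an adjusted p under 0.05. Gabre stands farthest to the right at 4.43, and Gabra5 farthest to the left at -1.44 in the average.

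Levels per kilobase put the genes in an order. Length here is that of all annotated exons of a gene, merged over its transcripts, so the order depends in part on the annotation. In naive control hippocampus Sst was highest at 205 ± 21 CPM per kb (SD, n = 5), then Cck at 178 ± 19, whose difference lay within their spread. Gabbr1 (92.2 ± 2.2) and Gabra5 (61.6 ± 8.6) were the most abundant receptor genes, ahead of Gabrb2 (50.5 ± 2.1) and Gabbr2 (49.8 ± 2.4), which did not differ beyond their spread. In naive control BLA Sst (395 ± 98) and Cck (194 ± 45) again led and Gabbr1 followed at 98.2 ± 5.3, but the first GABA-A subunit was Gabra3 at 56.5 ± 5.2, with Gabra5 at 18.4 ± 2.1. Slc32a1 (71.7 ± 14), Gad2 (62.0 ± 12) and Gad1 (61.3 ± 5.8) lay close together in the BLA, while in the hippocampus Gad1 (43.2 ± 0.26) was above Gad2 (28.1 ± 1.8) and Slc32a1 (25.9 ± 0.99).

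The BLA libraries also held far more striatal-type marker RNA: 18 of 19 such markers were called higher than in the hippocampus, with a median difference of 2.46, and 17 of 19 in naive controls. Of all genes, 30% were called higher on average and 20.4% in naive controls. Their part in the higher Gad1, Gad2, Slc32a1, Gabbr1, Lamp5 and Dlx5 levels was not tested by the comparison of tissues. Of 37 other GABA pathway genes tested, 13 were higher and 14 lower in the BLA, beside 30% and 34.5% of all genes. Insyn2a (1.16), Lhfpl4 (0.59) and Nlgn2 (0.55), all of inhibitory synapses, were among the higher, and the GABA-B receptor auxiliary genes Kctd12 (-0.68) and Kctd16 (-0.72) among the lower. Of 40 other interneuron genes 16 were higher and 14 lower, beside the same shares of all genes.

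In the hippocampus of APP/Tau mice 1 of the 30 genes changed with genotype, Gabrd, which was lower. Beside this, 10 of the 12 receptor genes lay below 0, with a median of -0.15, while 10 of the 17 interneuron genes lay above 0, with a median of 0.04 and none called. The signs of these sets were the same with DESeq2, RLE factors and limma-voom. Without the 2 libraries low in excitatory markers the medians were -0.08 and 0.00, with 9 of 12 below 0 and 9 of 17 above 0, and 0 of 30 genes were called. The median over all genes tested was 0.00, and 11.1% of all genes were called (7.27% higher and 3.8% lower), so by this test called genes were not more frequent among the 30 than among all genes. The count depended on the tool: 6 of 30 were called with DESeq2 (17.9% of all genes) and 4 among genes of at least 1 CPM (19.2%). At an unadjusted p under 0.05 the test named 12 of the 30, beside 28.5% of all genes.

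Gabrd encodes the delta subunit of extrasynaptic receptors. Its levels were 20.1, 20.8, 23.3, 20.2 and 17.6 CPM in naive and 16.3, 21.3, 21.2 and 20.4 CPM in trained APP/Tau hippocampus. Controls measured 22.7, 24.6, 22.6, 22.9 and 22.8 CPM when naive and 24.6, 20.6, 25.4, 23.1, 23.6 and 25.4 CPM when trained. Of the 9 APP/Tau libraries, 8 lay below the control median and 5 below every control, so the genotypes overlapped. The averaged difference was -0.22 ± 0.06 (95% interval -0.33 to -0.11, edgeR adjusted p = 0.0184). The lowest 2 values belong to the libraries that stood apart in excitatory markers, and without both the difference was -0.16 with an edgeR adjusted p of 0.0617, which ends the call. Every single left-out library kept it, with a largest adjusted p of 0.0473.

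Other receptor genes had differences below 0 that did not pass the threshold. Gabrb1 measured 213, 232, 223, 236 and 178 CPM in naive and 187, 227, 200 and 227 CPM in trained APP/Tau mice, and 241, 248, 228, 225 and 245 CPM in naive and 258, 236, 238, 222, 232 and 233 CPM in trained controls. All 9 APP/Tau libraries were below the control median and 4 were below every control, and the difference was -0.15 ± 0.05 (edgeR adjusted p = 0.0545). Gabrb2 had the same size of difference (-0.15 ± 0.05, adjusted p = 0.0601). Gabra5 differed by -0.28 ± 0.11 (adjusted p = 0.102): 164, 196, 191, 185 and 110 CPM in naive and 97.6, 171, 137 and 175 CPM in trained APP/Tau mice, against 154, 168, 173, 208 and 212 CPM in naive and 177, 216, 230, 203, 166 and 198 CPM in trained controls. Its lowest values were again those of naive replicate 5 and trained replicate 1. Gabra4 (-0.18 ± 0.07), Gabbr1 (-0.11 ± 0.05) and Gabbr2 (-0.15 ± 0.07) had edgeR adjusted p of 0.113, 0.145 and 0.154. Gabra3 (-0.05), Gabrg3 (-0.03) and Gabrg1 (0.06) were close to 0, as was Gphn (-0.07). Gabre (0.62 ± 0.52) lay between 0 and 0.907 CPM in this tissue, and Gabra2 (-0.32 ± 0.21) was widely spread in both genotypes.

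Interneuron genes had no common direction. Gad1 (-0.04), Slc32a1 (0.07), Pvalb (0.03), Reln (0.04) and Htr3a (0.05) were near 0, and Gad2 differed by 0.10 ± 0.05 (edgeR adjusted p = 0.164). The 4 transcription factor genes lay above 0: Lhx6 by 0.07, Dlx1 by 0.16 ± 0.05 (adjusted p = 0.0573), Dlx2 by 0.21 ± 0.12 and Dlx5 by 0.15 ± 0.08. Vip, the peptide gene of interneuron-selective cells, measured 21.5, 16.6, 14.6, 19.5 and 33.0 CPM in naive and 31.7, 16.1, 23.3 and 19.97 CPM in trained APP/Tau mice. In controls it measured 18.6, 15.3, 18.6, 16.9 and 17.3 CPM when naive and 17.6, 15.4, 14.6, 18.1, 21.4 and 17.96 CPM when trained. The 2 highest Vip values belong to the same 2 libraries that were lowest for Gabrd, and the difference of 0.33 ± 0.13 (adjusted p = 0.103) became 0.12 without them.

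Cck and Nos1, both expressed in interneurons and also in other neurons, had differences below 0. Cck measured 184, 226, 232, 226 and 165 CPM in naive and 141, 220, 189 and 239 CPM in trained APP/Tau hippocampus, against 214, 205, 230, 269 and 245 CPM in naive and 220, 258, 240, 255, 247 and 221 CPM in trained controls. All 9 APP/Tau values lay below the control median, and the difference was -0.23 ± 0.08 (edgeR adjusted p = 0.0818), or -0.13 without the 2 libraries. Nos1, which encodes neuronal nitric oxide synthase, differed by -0.30 ± 0.11 (adjusted p = 0.0855). Sst (-0.12), Calb2 (-0.14), Lamp5 (-0.08) and Npy (-0.04) did not pass.

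**Figure D2:**
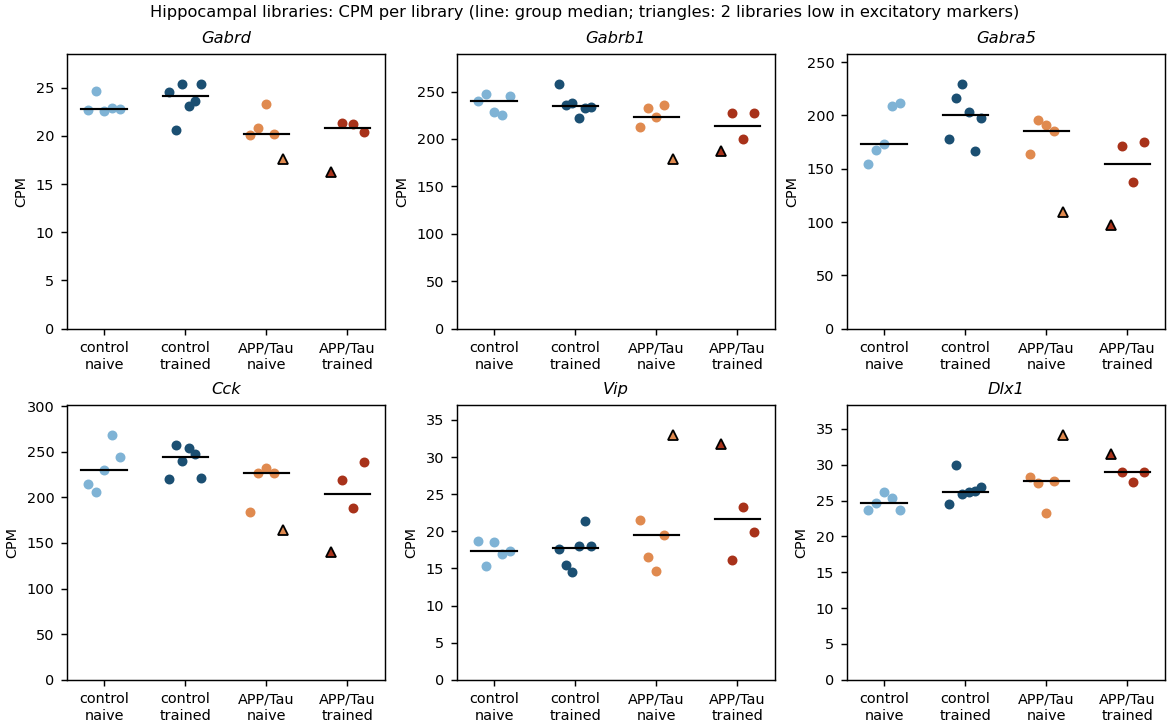
Levels of Gabrd, Gabrb1, Gabra5, Cck, Vip and Dlx1 in each hippocampal library (CPM, axis from 0) by genotype and training, with a line at each group median; triangles are the 2 APP/Tau libraries low in excitatory markers. The triangles are the lowest for Gabrd (16.3 and 17.6 CPM) and the highest for Vip (31.7 and 33.0 CPM).

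Some markers of other cells moved with genotype in the same hippocampal libraries. The summed level of 10 dentate granule cell markers, such as Prox1 and Dsp, was 383.5 to 837.4 CPM in APP/Tau and 709.2 to 969.1 CPM in control libraries, and 6 of the 10 were called lower. That of 10 microglial markers was 330.2 to 1180 against 261.6 to 322.6 CPM, with 9 of 10 called higher, and of 10 astrocyte markers 3972 to 9667 against 3641 to 4176 CPM, with 7 of 10 higher. Oligodendrocyte markers were called higher in 6 of 10, excitatory markers lower in 2 of 12 and pan-neuronal markers lower in 1 of 12. Of all genes, 7.27% were called higher and 3.8% lower. The part of these markers in the receptor gene differences was not tested.

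Of 37 other GABA pathway genes in the hippocampus 3 rose and 2 fell with genotype, beside 7.27% of all genes called higher and 3.8% lower. Those that rose were Dbi (0.70, edgeR adjusted p = 0.00123), which encodes the diazepam binding inhibitor and is also abundant in glia, Gabarap (0.15, adjusted p = 0.0477) and the chloride importer gene Slc12a2 (0.36, adjusted p = 0.0491). Shisa7, for an auxiliary protein of GABA-A receptors, fell (-0.32, adjusted p = 0.0319). Of 40 other interneuron genes 5 rose and 1 fell, beside the same shares of all genes. Whether either list differed from these shares was not tested. Among those that rose were Vwa5a (0.53) and Maf (0.43), while Grin3a, an NMDA receptor subunit gene, fell (-0.21). The RNA came from all cells of the tissue, and which cells carried these differences was not tested.

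Split by training, none of the 30 was called. In naive mice 0.202% of all genes were called, and Gabrd (-0.18 ± 0.08) and Dlx1 (0.19 ± 0.08) were the 2 members with an unadjusted edgeR p under 0.05, beside 15.2% of all genes. In trained mice 2.8% of all genes were called, and 8 members had an unadjusted p under 0.05 (20.3% of all genes), all with lower values in APP/Tau: Gabra4, Gabra5 (-0.45 ± 0.16), Gabrb1, Gabrb2, Gabrd (-0.26 ± 0.08, edgeR adjusted p = 0.0854), Gabbr1, Cck and Nos1. The naive and trained differences were not called different from each other for any member (0 of 30, beside 0% of all genes, and 0 at an unadjusted p under 0.05, beside 3.9%).

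**Figure D3:**
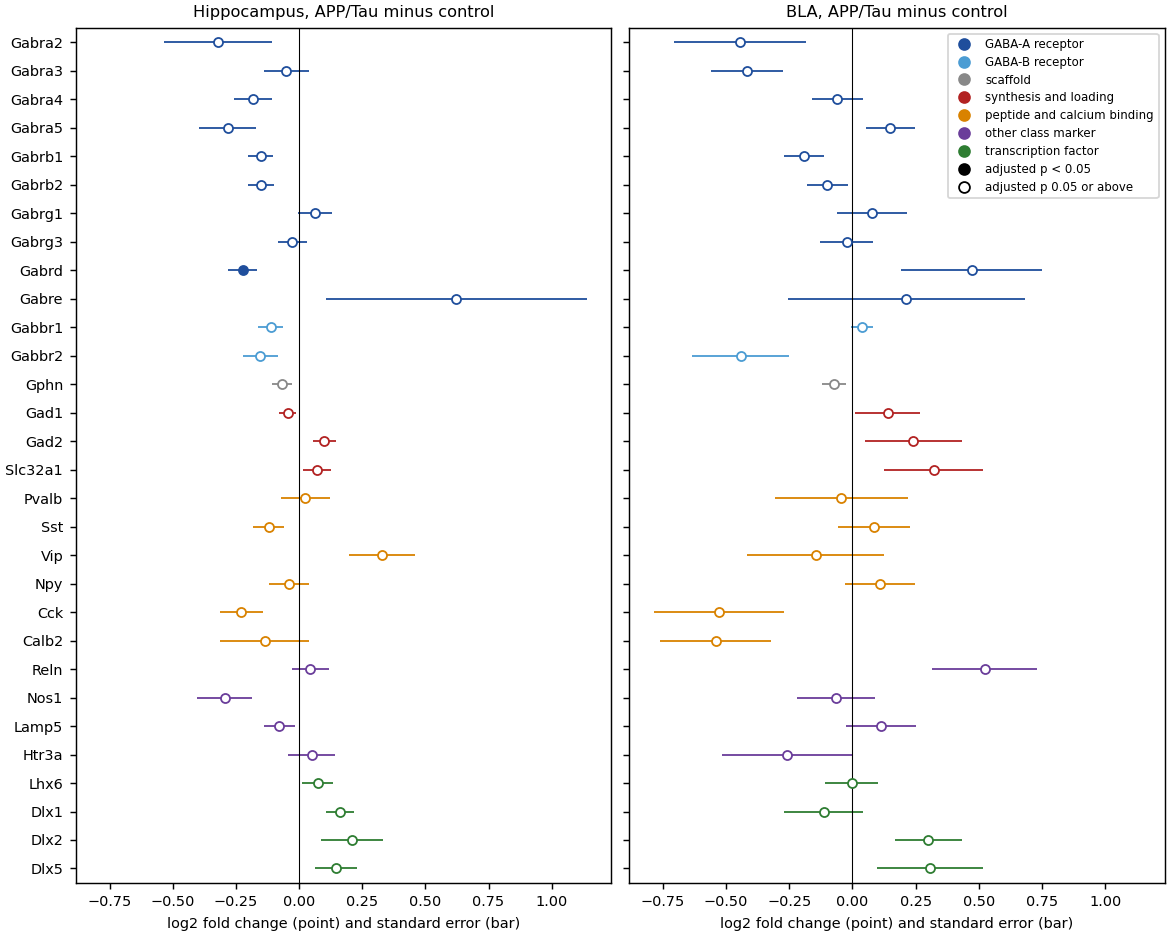
Genotype difference of each of the 30 genes in the hippocampus and in the BLA, as log2 fold change of APP/Tau over control (point) with its SE (bar), coloured by role; a filled point marks an adjusted p under 0.05. Gabrd in the hippocampus (-0.22) is the filled point.

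In the BLA none of the 30 genes changed with genotype, beside 1.18% of all genes, and 6 had an unadjusted edgeR p under 0.05, beside 19% of all genes. Gabra3 came nearest: 185, 110, 167, 210 and 156 CPM in naive and 126, 245, 139 and 145 CPM in trained APP/Tau mice, against 210, 230, 200, 216 and 253 CPM in naive and 234, 133, 269, 204 and 253 CPM in trained controls. Of the 9 APP/Tau libraries 8 lay below the control median, while trained replicate 2 was high, and control trained replicate 2 was low. The difference was -0.42 ± 0.14 (edgeR adjusted p = 0.126). It passed without APP/Tau trained replicate 2 (-0.55, adjusted p = 0.0125), without control trained replicate 2 (-0.48, adjusted p = 0.0343), and without the 2 libraries rich in striatal-type markers (-0.43, adjusted p = 0.0483). With the striatal-type marker score as a covariate it was -0.23 (adjusted p = 0.283).

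Reln measured 34.0, 75.8, 30.5, 27.0 and 34.3 CPM in naive and 40.7, 38.8, 59.9 and 56.2 CPM in trained APP/Tau BLA, against 21.5, 24.3, 32.4, 30.4 and 25.5 CPM in naive and 29.0, 61.5, 17.3, 30.1 and 39.8 CPM in trained controls. The highest values of either genotype were those of the striatal-rich libraries, and the difference was 0.52 ± 0.21 (edgeR adjusted p = 0.182), or 0.67 (adjusted p = 0.0435) without control trained replicate 2 and 0.33 (adjusted p = 0.474) with the marker score as a covariate. The other 4 were Gabrb1 (-0.19 ± 0.08), Gabbr2 (-0.44 ± 0.19), Calb2 (-0.54 ± 0.22) and Dlx2 (0.30 ± 0.13), with edgeR adjusted p of 0.191, 0.22, 0.19 and 0.226. Cck (-0.53 ± 0.26), Gabra2 (-0.44 ± 0.26), Gabrd (0.47 ± 0.28) and Slc32a1 (0.32 ± 0.19) had differences as large with wider errors. Receptor genes lay below 0 in 7 of 12 and interneuron genes above 0 in 9 of 17, with medians of -0.04 and 0.09 beside 0.01 over all genes. None of the 36 other GABA pathway genes and none of the 40 other interneuron genes was called; the smallest p was that of Slc12a2 (0.36, adjusted p = 0.0507) in the first set and Cnr1, the cannabinoid receptor gene of Cck basket cells (-0.48, adjusted p = 0.0848), in the second.

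Marker lists of the BLA had these genotype values: all 19 striatal-type markers lay above 0 in APP/Tau mice (median 0.42, none called) and 7 of 8 markers of BLA projection neurons, such as Rspo2, lay below 0 (median -0.61, none called). Split by training, 0 of 30 members were called in naive mice (beside 0.0388% of all genes) and 0 in trained mice (beside 0.0432%). In naive mice Slc32a1 (0.63 ± 0.27), Gad2 (0.57 ± 0.26), Gabra3 (-0.42 ± 0.19) and Cck (-0.77 ± 0.35) had an unadjusted edgeR p under 0.05 (13.2% of all genes), with adjusted p of 0.336 to 0.367. In trained mice Gabrb1 (-0.26 ± 0.11) and Gphn (-0.15 ± 0.07) had one, beside 10.3% of all genes.

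Over the 19 BLA libraries the levels of the members were compared with the striatal-type marker score, which is the mean log2 CPM of the 19 markers. Both were centred within the 4 groups, and the correlation was tested by permutation within groups with adjustment over all 23149 genes outside the marker list. Of the 30, 11 were called, 7 with positive and 4 with negative correlation, beside 12.2% of all genes (5.71% positive and 6.47% negative). These were 2 and 2 of the 12 receptor genes and 5 and 2 of the 17 interneuron genes. Counted with adjustment over the 30 relations alone, 20 of 30 were called, and 12 to 21 with 1 library left out. That count was 12 without APP/Tau trained replicate 4 or control naive replicate 1, trained replicate 2 or trained replicate 5, and 13 without control trained replicate 1, 3 or 4. These libraries share the punch as their source, and whether more punched neighbouring tissue underlies the score was not tested.

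The synthesis and loading genes were among those called. Slc32a1 gave a Pearson r of 0.94 (Spearman rho 0.92, permutation p adjusted over all genes = 0.00209), and leaving out the 2 libraries with the most extreme scores r was 0.91. Gad1 (r 0.93, rho 0.93) and Gad2 (r 0.92, rho 0.88) were alike, and Dlx5 gave 0.94 (rho 0.91). Gabrd had r 0.85 (rho 0.91, 0.85 without the 2 libraries) and ran from 9.07 to 62.0 CPM over the BLA libraries, with its highest value in APP/Tau naive replicate 2, a library rich in striatal-type markers. Lamp5 (r 0.84, rho 0.87) and Gabbr1 (r 0.77, rho 0.80) also rose with the score. Cck (r -0.85, rho -0.85), Gabra3 (r -0.82, rho -0.77), Vip (r -0.82, rho -0.81) and Gabbr2 (r -0.78, rho -0.76) fell with it, and without the 2 libraries r was -0.85, -0.76, -0.70 and -0.68. Gabrg3 (r 0.64), Calb2 (r -0.61) and Dlx1 (r -0.61) were not called over all genes and came to 0.38, -0.35 and -0.38 without the 2 libraries. Pvalb (r 0.30), Sst (r -0.26), Npy (r 0.22), Lhx6 (r 0.12) and Nos1 (r 0.06) were not called either.

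**Figure D4:**
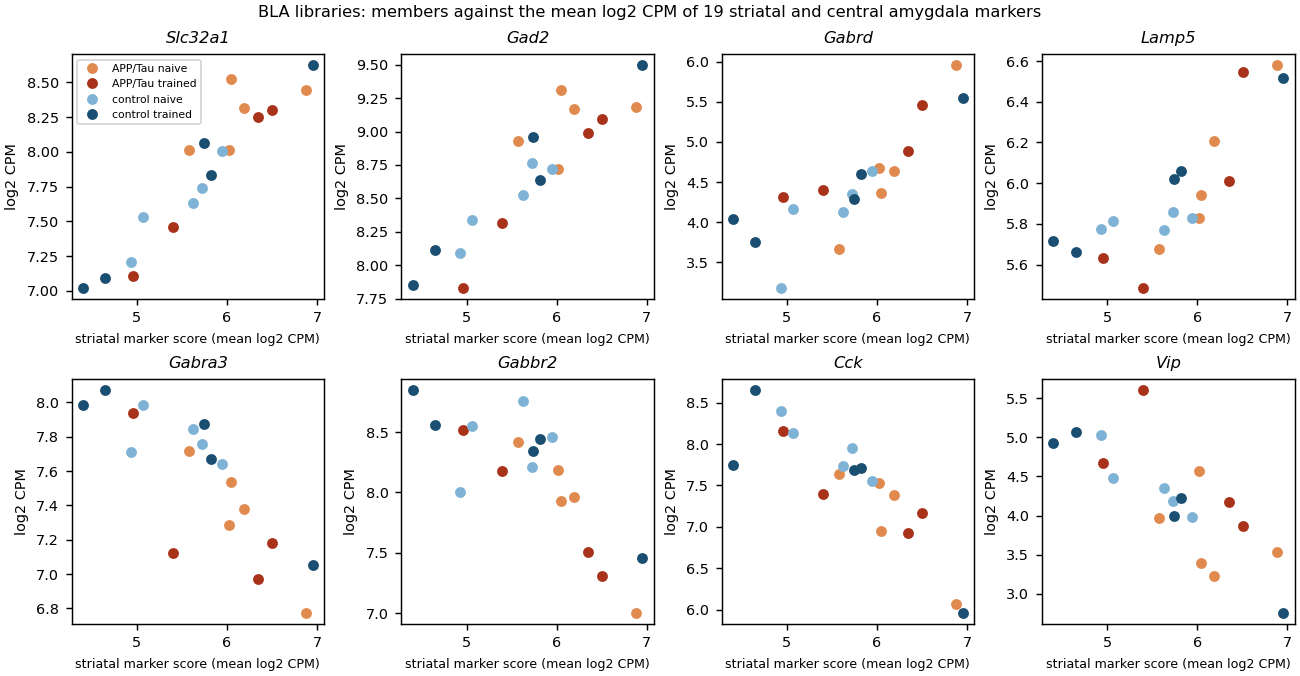
Log2 CPM of 8 of the genes against the mean log2 CPM of 19 striatal-type markers in each of the 19 BLA libraries, coloured by genotype and training. Slc32a1, Gad2, Gabrd and Lamp5 rise with the marker score (r 0.94, 0.92, 0.85 and 0.84), and Gabra3, Gabbr2, Cck and Vip fall (r -0.82, -0.78, -0.85 and -0.82).

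Training was followed by no called change of the 30 genes in either tissue. In the hippocampus 0 of 30 were called by edgeR in the average over genotypes, in controls alone and in APP/Tau mice alone, and over all genes the share called was 0% each time. No member had an unadjusted p under 0.05 in any of these, beside 3.08%, 2.42% and 4.59% of all genes. Averaged differences were small for the synthesis genes, with Gad1 at 0.03 ± 0.03 and Gad2 at 0.02 ± 0.05, and for Gabrb1 (-0.02 ± 0.05). Npy (0.15 ± 0.08) and Calb2 (-0.18 ± 0.18) were among the larger, and Gabre (-0.77 ± 0.52) was the largest with the widest error.

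In the BLA the counts were 0 of 30 in the same 3 comparisons, again beside 0% of all genes. Averaged over genotype, Gabra5 (0.24 ± 0.10) had an unadjusted edgeR p of 0.0217, the 1 member under 0.05 beside 3.77% of all genes, and in controls none was, beside 2.09%. In APP/Tau mice 5 members had an unadjusted p under 0.05 (5.85% of all genes): Gabrg1 (-0.53 ± 0.20), Gabrg3 (-0.38 ± 0.15), Gabre (-1.81 ± 0.71), Vip (0.91 ± 0.39) and Dlx1 (0.58 ± 0.23), each with an adjusted p of 0.841. Gabre, for example, measured 10.0, 3.44, 9.10, 10.5 and 4.27 CPM in naive and 3.43, 0.483, 0.425 and 4.10 CPM in trained APP/Tau mice, and 2.01, 3.86, 2.64, 4.97 and 3.11 CPM in naive and 6.70, 6.75, 1.38, 2.60 and 0.279 CPM in trained controls. Of these 5 genes, Vip was called for its correlation with the striatal-type marker score with adjustment over all genes. Gabrg1 (r 0.65), Gabrg3 (r 0.64), Gabre (r 0.69) and Dlx1 (r -0.61) were called only with adjustment over the 30 members. The part of the score in these training differences was not tested. The test of whether training acted differently in the genotypes called 0 of 30, beside 0% of all genes, and Gabrg1 (-0.59 ± 0.28) and Gabrg3 (-0.55 ± 0.21) had an unadjusted p under 0.05, beside 3.86% of all genes.

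Whether the genotype difference itself differed between the tissues was tested as an interaction. None of the 30 was called, beside 0.0262% of all genes. Gabra5 (0.42 ± 0.15), Gabrd (0.68 ± 0.29), Gabra3 (-0.38 ± 0.17), Gabbr1 (0.14 ± 0.06) and Reln (0.47 ± 0.23) had an unadjusted edgeR p under 0.05, beside 8.34% of all genes, with adjusted p of 0.407 to 0.588. The difference of Gabrd was thus not shown to be particular to the hippocampus. The test of whether training acted differently in the 2 tissues called 0 of 30, beside 0% of all genes, and 0 at an unadjusted p under 0.05, beside 2.21%.

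Receptor genes were set against interneuron genes within each library, as the mean log2 CPM of the 12 receptor genes minus that of the 17 interneuron genes. In hippocampal controls the difference had a median of 0.91 when naive (0.74 to 0.98) and 0.86 when trained (0.61 to 0.97). In APP/Tau hippocampus the medians were 0.78 (0.45 to 1.11) and 0.72 (0.54 to 0.80), so the ranges overlapped. In the BLA the medians were 1.25 (0.74 to 1.36) and 0.86 (0.36 to 0.99) in naive and trained APP/Tau mice, and 1.09 in both control groups (0.76 to 1.19 and 0.79 to 1.33). The receptor mean includes Gabre, whose low counts weigh heavily on a log scale. Over the 11 other receptor genes the hippocampal medians were 1.63 (1.52 to 1.76) in naive and 1.67 (1.55 to 1.77) in trained controls, and 1.56 (1.25 to 1.70) in naive and 1.51 (1.31 to 1.57) in trained APP/Tau mice. In the BLA they were 1.55 (1.17 to 1.67) and 1.28 (1.04 to 1.65) in naive and trained APP/Tau mice, and 1.53 (1.24 to 1.62) and 1.57 (1.41 to 1.70) in naive and trained controls. Without Gabre the ranges of the genotypes overlapped in both tissues too. These values describe the libraries and were not tested.

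Gabra2, which encodes the alpha-2 subunit, was widely spread in the hippocampus. Its sorted values were cut at their 2 largest gaps (46.8 and 54.4 CPM), a rule that gives 3 ranges for any gene. These were 105 to 123 CPM in 4 libraries, 169 to 236 CPM in 10 and 290 to 334 CPM in 6. Whether the levels form separate classes was not tested. The lowest range held 2 APP/Tau and 2 control libraries, the middle 6 and 4, and the highest 1 and 5. The BLA libraries with the same library numbers measured 106 to 149 CPM (4 libraries), 131 to 292 CPM (10) and 257 to 494 CPM (5), in that order of ranges. The BLA values of neighbouring ranges overlapped. Gabra2 was described by these ranges and left out of the correlation between the tissues, so no pooled correlation is given for it. For the other 29 members, the levels of same-numbered libraries were correlated between the tissues over 19 pairs, centred within groups. None had an adjusted permutation p under 0.05, and 0 to 1 did with 1 library left out.

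**Figure D5:**
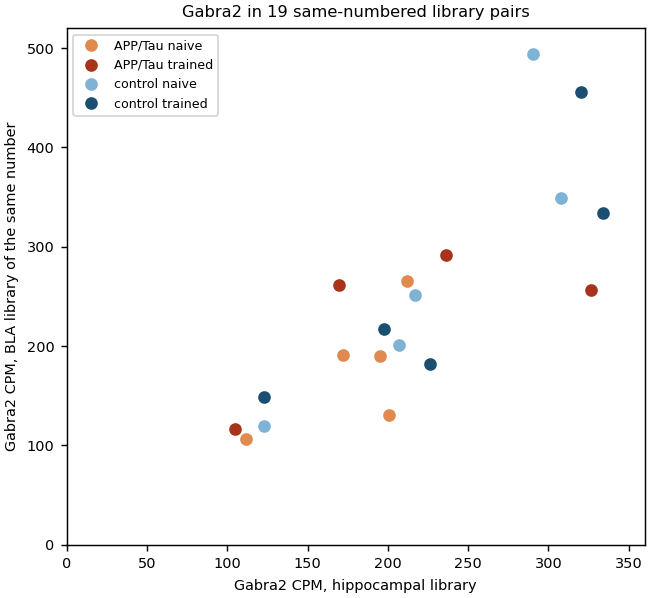
Level of Gabra2 in the hippocampal and BLA library of the same number (CPM, both axes), 19 pairs, coloured by genotype and training. The 2 largest gaps between the sorted hippocampal values, at which the 3 ranges were cut, were 46.8 and 54.4 CPM.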

How the data were processed

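The deposited tables hold raw read counts, 1 whole number for each gene symbol in each library. Reads had been trimmed with Trimmomatic 0.39, and the build was mm39, per the submitters' processing notes. How reads were aligned and counted, and with which annotation and strand setting, is not given in the sources used here. Even numbers made up 58.5 to 69.0% of BLA counts of 1 to 20 and 54.3 to 62.7% of hippocampal ones; how mates of a read pair were counted is not given.

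The 30 genes and all gene lists were chosen with earlier results of these data known. Groups came from the labels. Counts were filtered (filterByExpr, minimum count 10, minimum total count 15), scaled by TMM and tested in edgeR 4.0.16 (R 4.3.3) with quasi-likelihood F tests, 2-sided, in 18 comparisons: 7 per tissue, fitted to its 4 groups, and 4 over both tissues. Benjamini-Hochberg adjustment ran over all genes kept (25791 in the hippocampus, 23168 in the BLA and 26725 in both), with a threshold of 0.05. Intervals are 1.96 SE. Log2 CPM used a prior count of 2. Correlations used 100000 permutations in numpy 2.4.6, and figures matplotlib 3.10.9.

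All 30 genes may be named, and of 2 lists of other GABA pathway and interneuron genes up to 3 called genes per direction with the smallest p, or the 1 with the smallest p where none was called; some are not reported here. Lengths (all annotated exons of a gene, merged) and positions came from GENCODE vM21 and sequences from RefSeq, both GRCm38. Alternatives were DESeq2 1.42.0, limma-voom (limma 3.58.1), RLE factors, no filter, a filter at 1 CPM, only the groups compared, a replicate block, a marker covariate and libraries left out. Leaving out libraries rich in striatal-type markers or low in excitatory markers was chosen after seeing the data, as were the alternatives for the correlation between tissues and the adjustment of the marker score relation over all genes. The labels do not name the mouse behind each library, so p-values measure only the spread between libraries, which may be in part technical. No library was a duplicate (smallest chi-square per gene 9.50 over 171 BLA pairs and 18.4 over 190 hippocampal pairs). In simulated counts with log2 changes of 0.5, 1 and 2, the test recovered 81.8, 95.5 and 98.5% for the hippocampal genotype effect (25314 genes), 65.2, 94.0 and 100% for the BLA (22776 genes) and 89.4, 98.5 and 100% for the tissues (26159 genes). Unchanged genes gave 9, 11 and 7 false calls. The changes were planted in genes with a mean above 1 CPM. Changes under 0.5, such as that of Gabrd in the hippocampus, were not simulated, so recovery at that size is not known.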

Additional observations from a re-analysis of the deposited data

Results flagged for a closer look

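Within groups of 4 to 6 libraries, 15 of 240 sets of 1 gene and 1 group held a library far from the others by Dixon's test. Chance gives about 1 in 20, so this count is close to that of chance, and the flagged values are listed as a description only. The BLA libraries rich in striatal-type markers gave 5 of them: Gabrd (62.0 CPM, the others 12.6 to 25.5), Pvalb (35.1, the others 8.25 to 11.1) and Reln (75.8, the others 27.0 to 34.3) in APP/Tau naive replicate 2, and Gabra4 (160, the others 107 to 119) and Gabbr1 (890, the others 779 to 810) in control trained replicate 2. The hippocampal libraries low in excitatory markers gave 2: Gad2 in APP/Tau naive replicate 5 (204 CPM, the others 166 to 171) and Slc32a1 in APP/Tau trained replicate 1 (87.7, the others 71.5 to 73.8).

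Gabra3 was high in BLA APP/Tau trained replicate 2 (245 CPM, the others 126 to 145) and in hippocampal APP/Tau naive replicate 1 (92.1, the others 62.8 to 70.1). Calb2 was high in BLA control trained replicate 5 (65.9 CPM, the others 17.5 to 26.4) and Dlx1 in BLA APP/Tau trained replicate 3 (42.7, the others 20.2 to 23.9). Gabbr1 was low in BLA control naive replicate 1 (691 CPM, the others 770 to 798) and in hippocampal control trained replicate 1 (640, the others 727 to 752). In these libraries 18S rRNA made up 0.893% and 1.99% of counts, against tissue medians of 0.276% and 0.0912%. Hippocampal control naive replicate 1 held more, at 5.18%, and was not flagged for Gabbr1. The part of 18S rRNA in the low values was not tested. In the hippocampus Gabrd stood apart in control naive replicate 2 (24.6 CPM, the others 22.6 to 22.9) and Gabre in APP/Tau naive replicate 3 (0.907, the others 0 to 0.253).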

How the results depend on the processing

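No called value among the named genes changed direction under the alternatives run; of members not called, some crossed 0 (receptor genes below 0 in the hippocampus were 9 or 10 of 12, and interneuron genes above 0 were 9 to 11 of 17). For the genotype effect in the hippocampus the count of called members, 1 by edgeR, was 6 with DESeq2 (Gabrd, Gabrb1, Gabrb2, Cck, Nos1 and Dlx1; 17.9% of all genes), 2 with RLE factors (11.5%), 2 with limma-voom (10.4%), 4 among genes of at least 1 CPM (19.2%) and 0 without the 2 libraries low in excitatory markers (3.61%); the cause was not tested. Leaving out 1 library gave 1 to 4. In trained mice it was 0, with DESeq2 1 (Gabrd; 6.31% of all genes), and 0 to 2 with 1 library left out. For the BLA genotype effect it was 0, without the striatal-rich libraries 1 (Gabra3; 2.62% of all genes), and 0 to 2 with 1 left out. For the tissues 21 became 20 to 22, and 17 in naive controls became 15 to 17; there Pvalb lost its call in 6 left-out libraries and without the 2 hippocampal control libraries rich in 18S rRNA (largest adjusted p = 0.106 by edgeR), Lhx6 in 4, and Dlx2 without hippocampal control naive replicate 2. For the marker score relation 20, adjusted over the 30 genes, became 12 to 21 with 1 left out and 11 adjusted over all genes. The other comparisons of genotype, training and interaction stayed at 0 under each alternative run.

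Replicate numbers in the titles did not pair libraries: the mean correlation of deviations between same-numbered libraries was -0.0228 in the BLA and 0.0322 in the hippocampus. With the replicate block, 6 members were called for genotype in the hippocampus (Gabrd, Cck, Gabra4, Gabra5, Gabrb1 and Vip), beside 16.1% of all genes. Libraries of the 2 tissues with the same library number correlated at 0.13 on average (11 of 19 pairs over 0.1), and 18 of 19 BLA libraries correlated best with their own number; with that number as a replicate block the tissue counts were 21 and 17. The alternative without 18S-rich libraries was not run in the BLA, where no library met the rule. The depth of Gabre in the hippocampus (0 to 0.907 CPM) limits its comparisons.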
